A study of Mus musculus with 6 samples.

Results

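The Iroquois genes Irx1 to Irx6 encode 6 homeodomain transcription factors, and they were followed here in whole mouse retinas 2 days after optic nerve crush (ONC). The rows whose gene symbol is one of these names were taken from each deposited table, which gave 6 genes of 35485. All samples came from male wild type C57BL/6 mice aged 12 weeks. ONC mice received a 10 second crush of the nerve, placed 2 mm from the eye. Sham mice had the same surgery up to the crush. Each group had 3 samples, and each sample was a pool of RNA from 6 retinas of 6 mice, so the spread between samples is a spread between pools. The family was chosen by its ONC and sham values in these same 6 samples, namely total exon reads and RPKM (exon reads scaled to exon length and to the reads on all genes of the library), so the ONC and sham values of its members are given as a description. No p is given for a member, and where a member is said to meet a threshold used for all genes, this only places it among them.

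Iroquois proteins belong to the TALE class of homeodomain proteins, whose homeodomain carries extra residues in a loop between helices. In vertebrates the genes lie in a pair of clusters that arose by duplication. In the mouse, Irx1, Irx2 and Irx4 form the IrxA cluster on chromosome 13, and Irx3, Irx5 and Irx6 form the IrxB cluster on chromosome 8. Iroquois genes are known for patterning the neural tube, heart and limb. In the mouse retina Iroquois genes are transcribed in the developing ganglion cell layer, and Irx5 and Irx6 are known for their roles in cone bipolar cells, the interneurons that pass cone signals to ganglion cells. Retinal ganglion cells (RGCs) are the neurons whose axons form the optic nerve and are injured by ONC.

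The homeobox is so alike among the 6 genes that it bears on whether reads can be assigned to a single member. The stretch of 100 bases (the read length) in the Irx2 coding sequence that is closest on average to the other members is shown with its best match in each of them, as letters of the GENCODE transcripts of NCBIM37, 5′ to 3′, with capitals for bases that differ from Irx2. The stretch runs from base 409 to base 508 of the Irx2 coding sequence and lies in the homeobox.
Irx2: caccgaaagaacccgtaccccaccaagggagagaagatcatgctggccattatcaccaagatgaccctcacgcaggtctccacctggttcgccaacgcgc
Irx1: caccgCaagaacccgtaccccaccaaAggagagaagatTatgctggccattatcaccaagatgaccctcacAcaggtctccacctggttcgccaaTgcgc
Irx4: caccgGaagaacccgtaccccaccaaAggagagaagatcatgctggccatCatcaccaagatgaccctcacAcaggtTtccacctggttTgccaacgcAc
Irx3: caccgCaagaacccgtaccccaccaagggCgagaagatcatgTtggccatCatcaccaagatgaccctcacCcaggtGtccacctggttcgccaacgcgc
Irx5: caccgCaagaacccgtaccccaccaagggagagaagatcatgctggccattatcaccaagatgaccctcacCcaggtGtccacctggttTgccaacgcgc
Irx6: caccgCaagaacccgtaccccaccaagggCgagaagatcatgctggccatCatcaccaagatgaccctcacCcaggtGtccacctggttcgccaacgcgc

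The other members differed from Irx2 at 4 to 7 of these 100 bases. Over the whole transcripts, the closest stretches of 100 bases differed at 3 to 7 positions in 14 of the 15 pairs of members. The remaining pair, Irx3 and Irx6, had a stretch with 1 difference, shown here from coding base 449 of Irx3 and 488 of Irx6 with that base in capitals.
Irx3: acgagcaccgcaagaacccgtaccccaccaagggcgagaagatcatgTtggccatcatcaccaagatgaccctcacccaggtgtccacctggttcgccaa
Irx6: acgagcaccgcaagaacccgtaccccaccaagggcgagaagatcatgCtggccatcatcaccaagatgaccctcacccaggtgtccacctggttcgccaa

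The authors allowed at most 2 mismatches per read. Stretches within that limit made up 2.49% of the possible 100-base starts in Irx3 and 1.71% in Irx6. In the deposited counts every exon read on each of the 6 genes was listed as uniquely mapped, so total and unique exon reads were equal in all samples. A read of 1 member placed on another because of a sequencing difference inside this stretch would not be visible in the tables.

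The sham libraries held 17343945 to 18349331 exon reads each and the ONC libraries 20019818 to 20358008. Exons held 70.9% to 76.6% of the reads on genes in sham and 78.5% to 80.4% in ONC. Markers of rods, cones, Muller glia, bipolar, amacrine and horizontal cells, microglia, endothelium and pigment epithelium were all detected. The summed RPKM of 4 lens genes was 4.39 to 30.9 in sham and 33.0 to 42.0 in ONC, and that of 4 microglial and macrophage genes was 7.59 to 9.38 and 11.9 to 14.1. The skin and muscle list of 6 genes summed to 2.47 to 3.22 in sham and 2.20 to 3.55 in ONC, with Myh1 at 0 reads in all samples. The part of lens, microglial or other cell types in the Iroquois values was not tested.

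In the sham retina the members were transcribed at low levels, and their RPKM fell in the order Irx6, Irx4, Irx2, Irx5, Irx3 and Irx1. Irx6 was the most abundant at an RPKM of 4.30 ± 0.312 (SD, n = 3), above 36.8% of the expressed genes, here the 13670 whose mean RPKM exceeded 0.3 in sham, in ONC or in both. Irx4 followed at 1.91 ± 0.363, and its 3 values overlapped neither those of Irx6 nor those of Irx2. Irx2, at 1.31 ± 0.112, Irx5, at 1.15 ± 0.182, and Irx3, at 1.01 ± 0.360 (SD, n = 3 each), overlapped one another and were not separated beyond their spread. Irx1 was lowest at 0.217 ± 0.101 and lay below the filter of 0.3 in both groups, so 5 of the 6 members passed it. In the ONC retina the order was Irx6, Irx5, Irx4, Irx3, Irx2 and Irx1, with overlap between Irx5 and Irx4 and between Irx3 and Irx2.

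On the log2 scale, Irx2 and Irx4 had the largest differences among the 5 members past the filter, Irx3 and Irx6 were also lower in every ONC sample than in every sham sample, and the values of Irx5 overlapped between the groups. Log2 fold changes given here are those of total exon reads after TMM normalization, ONC against sham, with the standard error (SE) of edgeR's quasi-likelihood fit over all 13670 genes. Irx4, at -1.05 (SE 0.25), and Irx3, at -0.91 (SE 0.35), were not separated beyond their SE. Without sham replicate 1 their order was reversed, at -1.0 for Irx4 and -1.11 for Irx3. A gene counted as a DEG (differentially expressed gene) when it changed more than 1.5-fold with a p below 0.1 after Benjamini-Hochberg adjustment. This rule took in 1.66% of the genes tested, 0.834% as lower and 0.827% as higher in ONC. Of the 5 members, 2 (Irx2 and Irx4) met this rule, both lower in ONC. Since the family was picked with this contrast in view, nothing is read from that share.

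Irx2, an IrxA gene on chromosome 13 of GRCm38 from 72628978 to 72634194 with 5 exons, had 68, 84 and 79 exon reads in the sham pools (replicates 1 to 3) and 26, 28 and 35 in the ONC pools. The corresponding RPKM values were 1.201, 1.42 and 1.31 in sham and 0.417, 0.457 and 0.548 in ONC. The groups were far apart, with the highest ONC value under the lowest sham value. Mean RPKM was 1.31 ± 0.112 in sham and 0.474 ± 0.0671 (SD, n = 3 each) in ONC, and the log2 fold change was -1.59 (SE 0.31), a level 3.01-fold higher in sham. Reads across exon junctions numbered 54 in the sham group and 12 in the ONC group, and reads on introns 15 and 5.

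Irx4, the other IrxA gene past the filter, is known from the heart as a ventricular regulator and from the chick retina as a regulator of ganglion cell axon guidance. It lies on chromosome 13 from 73260497 to 73269620 with 6 exons. It had 127, 132 and 95 exon reads in the sham pools (replicates 1 to 3) and 79, 50 and 68 in the ONC pools. The RPKM values were 2.12, 2.12 and 1.49 in sham and 1.2, 0.772 and 1.01 in ONC, so sham replicate 3 was the lowest of its group and lay nearest to ONC replicate 1 without overlap. The log2 fold change was -1.05 (SE 0.25). Without ONC replicate 2, the lowest sample, it was -0.89 and no longer met the DEG rule. Intron reads of Irx4 numbered 16 in sham and 2 in ONC, and junction reads 100 and 60.

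Irx1, on chromosome 13 from 71958232 to 71963723, had 13, 5 and 14 exon reads in the sham pools (replicates 1 to 3) and 0, 5 and 5 in the ONC pools. The RPKM was 0.217 ± 0.101 in sham and 0.0633 ± 0.0549 (SD, n = 3 each) in ONC. In ONC replicate 1 a count of 0 still allows up to 3 reads, or an RPKM of 0.0575, by counting error alone. The groups were apart only narrowly, since sham replicate 2, at 0.101, lay next to ONC replicate 2, at 0.0970. It is not in the fit of expressed genes, and in the fit without a filter its log2 fold change was -1.87 (SE 1.03).

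**Figure D1:**
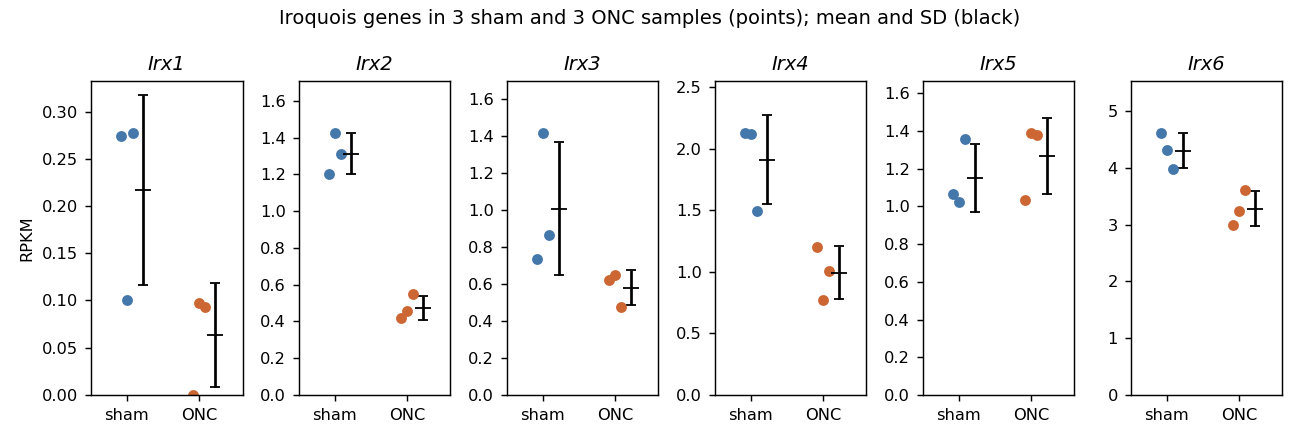
RPKM (vertical axis, a separate scale for each gene, starting at 0) of the 6 Iroquois genes in 3 sham (blue) and 3 ONC (orange) samples, with black bars for the mean and SD. The points of Irx5 overlap between the groups, while for Irx2 all sham points lie above 1.2 and all ONC points below 0.55.

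Irx6, an IrxB gene known for its role in cone bipolar cells, lies on chromosome 8 from 92674402 to 92680080 with 6 exons. It had 252, 246 and 232 exon reads in the sham pools (replicates 1 to 3) and 180, 192 and 223 in the ONC pools, although the ONC libraries were deeper. The RPKM values were 4.61, 4.32 and 3.98 in sham and 2.99, 3.24 and 3.61 in ONC, so ONC replicate 3 and sham replicate 3 were neighbours without overlap. The log2 fold change was -0.51 (SE 0.14), a size below the fold change limit of the DEG rule. Without ONC replicate 3 it was -0.59 and met the rule.

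Irx3, on chromosome 8 from 91798511 to 91801654, varied widely among the sham pools. Its exon reads numbered 40, 80 and 50 in the sham pools (replicates 1 to 3) and 37, 38 and 29 in the ONC pools. The RPKM values were 0.736, 1.41 and 0.865 in sham and 0.619, 0.646 and 0.473 in ONC. Sham replicate 2 stood above the other sham samples, and sham replicate 1 lay close to the ONC samples. The log2 fold change was -0.91 (SE 0.35), outside the DEG rule. It was -0.62 without sham replicate 2 and -1.11 without sham replicate 1. Junction reads of Irx3 overlapped between the groups, at 4, 9 and 16 in the sham pools and 18, 4 and 6 in the ONC pools. Their sums were 29 in sham and 28 in ONC, of which ONC replicate 1 alone gave 18.

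Irx5, on chromosome 8 from 92357796 to 92361456 with 3 exons, is required for the maturation of some cone bipolar cells. It had 59, 59 and 80 exon reads in the sham pools (replicates 1 to 3) and 63, 83 and 86 in the ONC pools. The RPKM values were 1.07, 1.02 and 1.36 in sham and 1.04, 1.39 and 1.38 in ONC. The means were 1.15 ± 0.182 in sham and 1.27 ± 0.201 (SD, n = 3 each) in ONC, with overlapping values. Its log2 fold change was 0.01 (SE 0.27), and its sign changed to negative in 4 of the 16 alternative fits.

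RPKM is scaled to exon and intron reads together, and under that scaling the median log2 fold change of all expressed genes was 0.13, compared with 0.01 under TMM. The RPKM values therefore place ONC samples slightly higher than TMM does. Of the 5 members past the filter, 4 had all ONC RPKM values below all sham values, a pattern that 3.45% of the expressed genes showed, compared with 25.4% for all ONC values above all sham values. With the scaling of RPKM the log2 fold changes were -1.46 for Irx2, -0.94 for Irx4, -0.79 for Irx3, -0.39 for Irx6 and 0.14 for Irx5.

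The make-up of the family differed between the groups within each library, a comparison that no scaling between libraries can change. IrxA genes gave 36.0%, 35.0% and 33.2% of the summed Iroquois RPKM in the sham libraries and 25.8%, 20.1% and 23.2% in the ONC libraries. The IrxA share was thus lower in every ONC sample, at 23.0% ± 2.88 compared with 34.7% ± 1.43 (SD, n = 3 each). The share of Irx6 was 43.5% ± 2.31 in sham and 49.2% ± 1.52 in ONC (SD, n = 3 each), while its own level was lower in ONC. The ratio of Irx2 to Irx5 was 1.12, 1.39 and 0.963 in the sham libraries and 0.403, 0.329 and 0.397 in the ONC libraries. That of Irx6 to Irx5 did not overlap between the groups either. Other ratios did overlap. Irx4 to Irx6 was 0.461, 0.491 and 0.375 in sham and 0.402, 0.238 and 0.279 in ONC. Irx2 to Irx4 was 0.565, 0.672 and 0.878 in sham and 0.348, 0.592 and 0.544 in ONC. The summed RPKM of all 6 genes was 9.90 ± 0.565 in sham and 6.66 ± 0.430 in ONC (SD, n = 3 each).

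**Figure D2:**
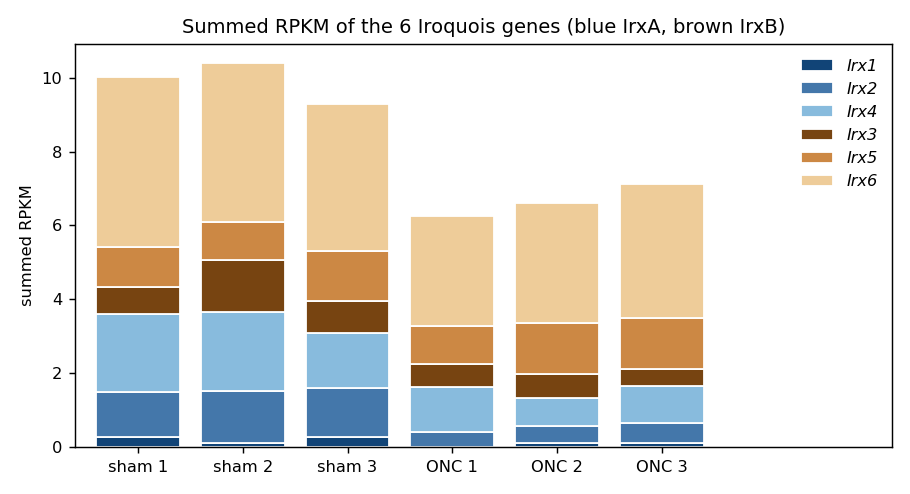
Summed RPKM (vertical axis) of the 6 Iroquois genes in each sample, stacked by gene, with IrxA genes in blue and IrxB genes in brown. The bars of the ONC samples end between 6.26 and 7.11 and those of the sham samples between 9.29 and 10.4, and the blue part is smaller in ONC.

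Marker lists were set beside the members. They were chosen with earlier results of these data known. Of the 17 RGC markers past the filter, 6 were DEGs lower in ONC and none was a DEG higher, at a median log2 fold change of -0.63 compared with 0.01 over all genes. These 6 were the RGC transcription factor genes Pou4f1 and Pou4f2, the RNA-binding protein gene Rbpms, the synuclein gene Sncg, the neurofilament gene Nefh and the melanopsin gene Opn4. Pou4f2 fell by 1.39 on the log2 scale (SE 0.19, adjusted p = 0.000103, edgeR's quasi-likelihood test) and Opn4, which marks intrinsically photosensitive RGCs, fell by 0.78 (SE 0.23, adjusted p = 0.0626, edgeR) and was a DEG in 10 of the 16 alternative fits, missing the rule without ONC replicate 2 or 3 or sham replicate 2 or 3 and in both limma fits. By the adjusted p threshold alone, 9 of the 17 were lower in ONC and 1 was higher. Among the lower were Nefl at -0.53 and Nefm at -0.45 (adjusted p = 4.07e-05 and 0.001865, edgeR), below the fold change limit. Thy1, at -0.22 (adjusted p = 0.0517, edgeR), was also lower and below that limit. The glutamate transporter gene Slc17a6 passed the adjusted p threshold in the other direction at 0.26 (SE 0.07, adjusted p = 0.0525, edgeR), below the fold change limit. The subclass genes Tbr1, at -0.85 (SE 0.29), and Foxp2, at -0.58 (SE 0.35), missed the adjusted p threshold (0.126 and 0.435, edgeR). The summed RPKM of the list was 462.7 to 482.6 in sham and 348.7 to 365.4 in ONC. The ratio of Irx2 to Pou4f2 overlapped between the groups, at 0.453, 0.370 and 0.399 in sham and 0.320, 0.271 and 0.507 in ONC. In whole retina, fewer cells of a type and less RNA per cell cannot be told apart, and the part of the RGC marker values in the Iroquois values was not tested.

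Of the 17 bipolar cell markers past the filter, 0 were DEGs by edgeR's quasi-likelihood test and 0 by DESeq2, with 3 at an unadjusted p under 0.05 in edgeR. Their median log2 fold change was -0.05. At the share of 1.66% DEGs over all genes, a list of 17 would often hold none. The bipolar regulator Otx2, at 0.09 (SE 0.06), and the cone bipolar gene Vsx1, at -0.12 (SE 0.10), missed the adjusted p threshold (0.461 and 0.606, edgeR). Lhx4, a LIM homeobox gene of cone bipolar cells, passed it at -0.50 (SE 0.16, adjusted p = 0.0963, edgeR) and not the fold change limit. The list summed to an RPKM of 456.1 to 510.1 in sham and 506.4 to 533.0 in ONC. Isl1, which stands in both the RGC and the bipolar list, had a log2 fold change of -0.02 (SE 0.07, adjusted p = 0.916, edgeR).

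**Figure D3:**
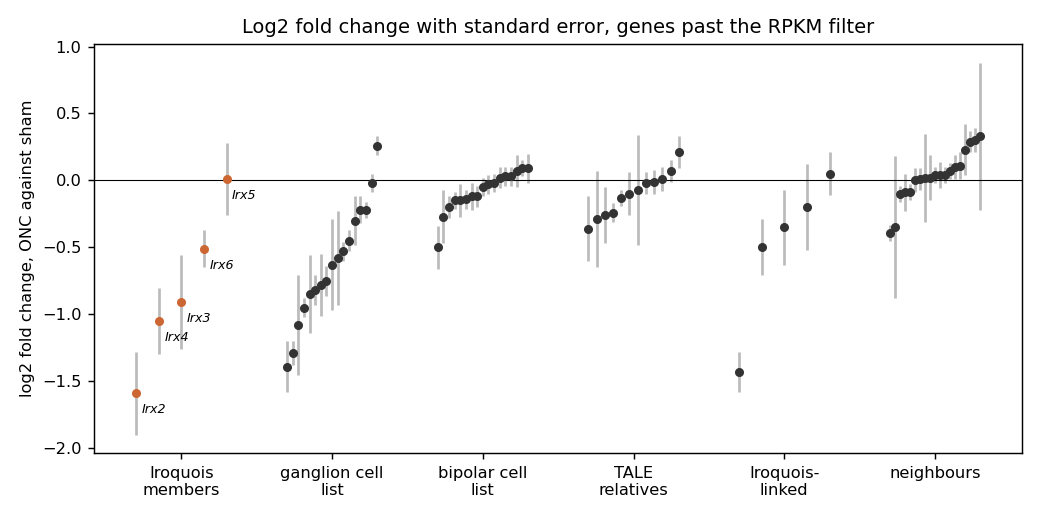
Log2 fold change of ONC against sham (vertical axis, points with SE) for the 5 Iroquois members past the filter (orange) and the genes of 5 lists, each sorted by value. Irx2, at -1.59 (SE 0.31), is the lowest point, with Kcnd2 at -1.43 and Pou4f2 at -1.39 within its SE. The bipolar list stays between -0.50 and 0.09.

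The 12 other TALE homeobox genes, which encode cofactors and relatives of the Iroquois proteins, were all expressed, and 0 of them were DEGs by edgeR's quasi-likelihood test or by DESeq2, with 2 at an unadjusted p under 0.05 in edgeR. With 1.66% of all genes as DEGs, 0 of 12 is a common outcome. The log2 fold changes of the 12 genes lay between -0.36 and 0.21. Mkx, the closest relative of the Iroquois genes, had the lowest at -0.36 (SE 0.24, adjusted p = 0.472, edgeR), followed by the Pbx gene Pbx4 at -0.29. The Meis genes Meis1, Meis2 and Meis3 were at -0.02, -0.13 and 0.21 and did not pass the adjusted p threshold (0.923, 0.290 and 0.432, edgeR).

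A list of 6 genes known to be controlled by Iroquois proteins in heart or retina was read in the same way. Kcnd2, the potassium channel gene that Irx5 represses in heart muscle, had an RPKM of 3.41 ± 0.671 in sham and 1.38 ± 0.135 in ONC (SD, n = 3 each). It fell by 1.43 on the log2 scale (SE 0.15, adjusted p = 5.41e-06, edgeR) and was a DEG in all 16 alternative fits. Of the other members of the list past the filter, the channel subunit gene Kcnip2 at -0.35 (SE 0.28, adjusted p = 0.557), the connexin gene Gja1 at -0.20 (SE 0.32, adjusted p = 0.805) and the axon guidance gene Slit1 at 0.05 (SE 0.16, adjusted p = 0.914, edgeR) were not DEGs. Gja5 had at most 3 reads per sample and was not tested.

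The genes around both clusters were compared with the members. The files list 58 other genes within 1 Mb of the clusters or between their members, of which 19 passed the filter. Of these, 0 were DEGs by edgeR's quasi-likelihood test or by DESeq2, with 3 at an unadjusted p under 0.05 in edgeR. Their median log2 fold change was 0.04, with a range of -0.39 to 0.33. Since 1.66% of all genes were DEGs, a count of 0 among 19 is a common outcome too. No listed gene shared bases with a member. Among the genes past the filter, the nearest to Irx4 was Ndufs6, a subunit gene of respiratory complex I at a distance of 50256 bases, with a log2 fold change of 0.11 (SE 0.10, adjusted p = 0.615, edgeR). The nearest to Irx3 was Fto, an RNA demethylase gene whose introns hold enhancers of Irx3, at -0.09 (SE 0.06, adjusted p = 0.516, edgeR). The clusters are flanked by related genes, and of these Lpcat1 beside IrxA had a log2 fold change of 0.29 (SE 0.08, adjusted p = 0.0399, edgeR) and Lpcat2 beside IrxB of 0.10 (SE 0.09, adjusted p = 0.615, edgeR). Ahrr, the repressor gene of the aryl hydrocarbon receptor, also passed the adjusted p threshold at 0.30 (SE 0.09, adjusted p = 0.0666, edgeR). Tppp, a tubulin polymerization gene, passed the adjusted p threshold in the other direction at -0.39 (SE 0.06, adjusted p = 0.000463, edgeR).

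**Figure D4:**
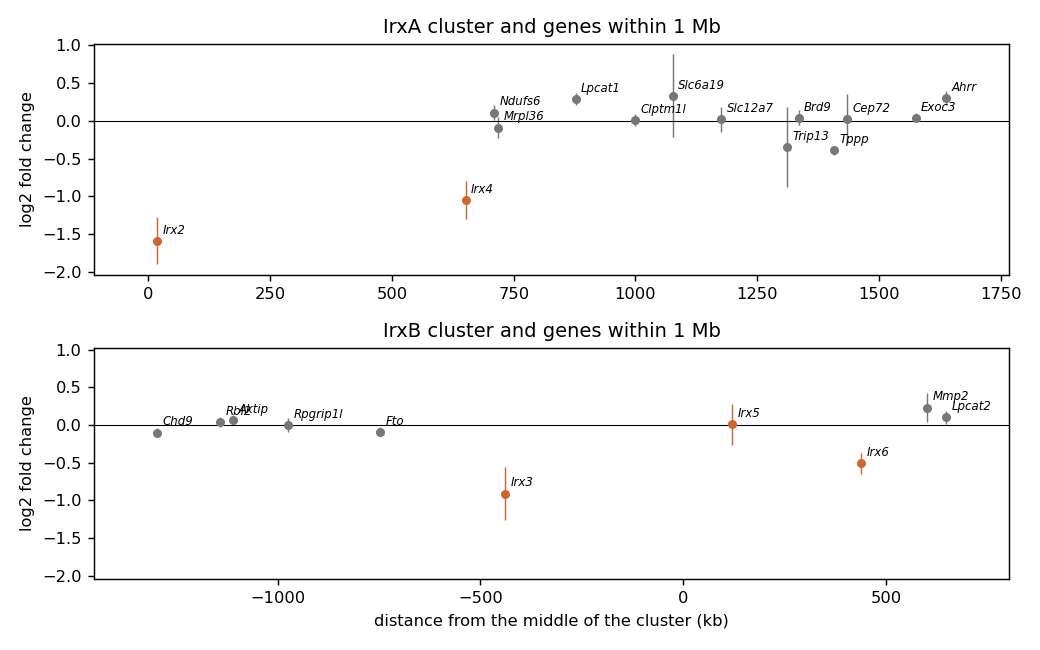
Log2 fold change of ONC against sham (vertical axis, points with SE) by distance from the middle of each Iroquois cluster in kb (horizontal axis), for members (orange) and other genes within 1 Mb (grey) past the filter. The grey points stay between -0.39 and 0.33, while Irx2 and Irx4 lie at -1.59 and -1.05.

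Upstream sequence is shown for the members that were DEGs, taken from RefSeq promoters of GRCm38, which hold 3 of the 6 members (Irx2, Irx3 and Irx4). Each run is the 250 bases before the RefSeq transcript start on the plus strand of chromosome 13, from 72628570 to 72628819 for Irx2 and from 73260247 to 73260496 for Irx4. Capitals mark matches on either strand to CATTAA, the core of the site bound by Pou4f proteins, or ACANNTGT, the Iroquois binding site. Both motifs were chosen after the sequences had been seen.
Irx2: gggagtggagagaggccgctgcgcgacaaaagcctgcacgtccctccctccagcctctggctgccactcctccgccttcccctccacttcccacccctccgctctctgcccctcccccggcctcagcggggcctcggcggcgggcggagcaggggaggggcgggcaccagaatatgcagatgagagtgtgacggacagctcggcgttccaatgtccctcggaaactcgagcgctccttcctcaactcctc
Irx4: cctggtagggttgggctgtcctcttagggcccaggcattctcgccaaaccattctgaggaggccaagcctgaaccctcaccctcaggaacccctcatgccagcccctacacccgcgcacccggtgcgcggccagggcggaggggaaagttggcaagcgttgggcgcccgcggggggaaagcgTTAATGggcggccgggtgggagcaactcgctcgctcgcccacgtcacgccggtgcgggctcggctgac

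CATTAA had 1 match in Irx4, on the minus strand and starting 68 bases before the transcript start, and none in Irx2 or Irx3, while 7.91% of all 32851 promoters of this length held it. ACANNTGT had no match in these 3 and was found in 6.31% of all promoters. The motifs do not overlap each other in these runs. Both promoters are rich in G and C, at 68.4% for Irx2 and 68.8% for Irx4, compared with a median of 52.4% over all promoters. The Irx2 transcript in the files starts at 72628978, downstream of the RefSeq start used here.

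For each member past the filter, the 3 genes with the most similar profile over the 6 samples were found by Pearson's r of log2 TMM-normalized counts among the 11971 genes whose mean RPKM exceeded 1 in either group. These are descriptions over samples that share the ONC and sham groups, and r takes no account of the size of a difference. A search of 11971 genes over only 6 samples readily returns r near 1. Irx5, with a log2 fold change of 0.01, also reached 0.9866. For Irx2 they were the neuronal gene Nsg2 (r = 0.9997) and the sodium channel genes Scn4b (r = 0.9990) and Scn1a (r = 0.9977), with log2 fold changes of -0.25, -3.20 and -0.79. For Irx4 they were Taok3 (r = 0.9995), Fndc1 (r = 0.9940) and Map3k13, which encodes the injury kinase LZK (r = 0.9938), with log2 fold changes of -0.14, -0.60 and -0.26. Irx3 was closest to Opn4 (r = 0.9857), followed by Epb4.9 and Capn5, and Opn4 too was highest in sham replicate 2, at 2.60. Irx6 was closest to the histidine decarboxylase gene Hdc (r = 0.9855), followed by Paip1 and Kcnip4. The nearest to Irx5 were Fdxr, Grp and Zdhhc3 (r = 0.9828 to 0.9866).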

How the data were processed

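RNA from 6 pools of retinas, 3 ONC and 3 sham, was sequenced as 100 base paired-end reads after TruSeq library preparation on 1 lane of a HiSeq2000. Mapping was done by the authors in CLC Genomics Workbench 6.0.1 with at most 2 mismatches, and the authors deposited raw read counts per gene on exons, exon junctions and whole genes. The authors also deposited RPKM, which was recomputed here from exon reads, exon length and all reads on genes to within 0.0005. The labels name mm9, but 99.9% of 29902 gene spans overlap those of GRCm38 in RefSeq, so positions are given as GRCm38. Intron reads were taken as gene reads minus exon reads. TruSeq preparation of this kind is not stated to keep the strand.

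For 13670 genes, total exon reads were modelled by group alone in edgeR 4.0.16 under R 4.3.3 (TMM factors, glmQLFit, glmQLFTest). All these genes entered the Benjamini-Hochberg adjustment. The SE is the log2 fold change divided by the square root of F. The fit was tested on simulated data. The alternatives were DESeq2 1.42.0, limma 3.58.1 on log2(RPKM + 0.1) and log2(RPKM + 1), other scalings, filters and counts, the replicate block, and leaving out each sample, 16 in all. Replicates of 1 group differed by more than sampling noise (chi-square per degree of freedom 4.54 to 13.7). The named genes are the members, the DEGs of each list, otherwise the 2 largest changes in it, RGC markers above an RPKM of 1 and the nearest neighbours. Bipolar regulators, the Meis genes, Myh1, lower RGC subclass markers, further linked genes and further neighbours were named after their values were seen. The members, lists and tests were chosen with earlier results of these data known. A column of group mean RPKM (1 file) was not used. Some genes of the lists are counted and not reported here by name. Figures were drawn with matplotlib 3.10.9.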

Additional observations from a re-analysis of the deposited data

How the results depend on the processing

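The number of DEGs over all genes was 227 (113 higher, 114 lower) and moved to 350 (263 higher, 87 lower) with division by all reads on genes, to 349 (113 higher, 236 lower) with total gene reads, and to between 153 and 353 when single samples were left out, at 353 without ONC replicate 1. With limma on log2(RPKM + 0.1) it was 282 (217 higher, 65 lower) and with log2(RPKM + 1) 165 (126 higher, 39 lower). As a description, 2 members met the DEG rule, and 1 did with limma on log2(RPKM + 1), where Irx4 missed it. When single samples were left out, this number ranged from 1 (without ONC replicate 2) to 3 (without ONC replicate 3), and that of bipolar markers from 0 to 1 (Lhx4, without ONC replicate 3). The number of RGC markers meeting it ranged from 4 to 8 over the 16 alternatives. Irx2, Irx3, Irx4 and Irx6 had negative log2 fold changes in all of these, which shrank to -0.65, -0.33, -0.54 and -0.31 with limma on log2(RPKM + 1). With the replicate block, 222 genes were DEGs, and Irx2 and Irx4 were the members among them. Deviations of same-numbered samples from their group means correlated at -0.047, -0.033 and 0.003, so the numbers were not taken as pairs. With 5 to 14 reads in most samples, the level of Irx1 is limited by depth, and intron reads of all members were too few to compare.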
